A study of Mus musculus with 12 samples.

Results

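The 10 genes described here are long non-coding RNA (lncRNA) genes that lie beside or across the genes of developmental transcription factors: Dlx6os1, Dlx1as, Six3os1, Emx2os, Otx2os1, Pax6os1, Lhx1os, Zfhx2os, Sox2ot and Rmst. They were chosen by name, and every row of the deposited lncRNA count table whose transcript belongs to one of them in GENCODE vM21 was taken, which gave 61 transcript rows of 48033. Summed per gene, they are 10 of 22115 gene sums. The libraries came from the cerebral cortex and hippocampus of mice aged 7 months on a C57BL/6J background, either wild type (WT) or 5 × FAD, with 3 libraries in each of the 4 region and genotype groups. 5 × FAD mice carry transgenes driven by the neuronal Thy1 promoter and serve as a model of amyloid pathology. The WT mice are non-transgenic. Both regions were dissected bulk tissue, so fewer cells of a type and less RNA per cell cannot be told apart.

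Homeodomain and SOX transcription factors pattern the embryonic forebrain, and many stay on in restricted neuron or glia types of the adult brain. Their genes often have an lncRNA partner that starts near the coding gene's own start and runs in the opposite direction, and the pair is often transcribed in similar places. Dlx factors mark the GABAergic interneuron lineage, Emx2 the dorsal telencephalon from which cortex and hippocampus form, Six3 the anterior forebrain and striatum, Otx2 the choroid plexus among other tissues, and Sox2 neural stem cells and glia. Rmst is an lncRNA known for its part in neurogenesis.

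The annotation fits the name antisense for most of the genes, but not for all. Emx2os (chr19:59425104-59458635, minus strand, GRCm38) runs against Emx2 and shares 264 nt of exon with it on the other strand. Dlx1as (chr2:71516454-71537891) shares 335 nt of exon with Dlx1, Zfhx2os (chr14:55053869-55075873) 3255 nt with Zfhx2, Otx2os1 (chr14:48668708-48870683) 154 nt with Otx2, and Six3os1 (chr17:85600651-85618398) 106 nt with Six3. Dlx6os1 (chr6:6820189-6871592) holds all of Dlx6 in an intron, and Pax6os1 (chr2:105536080-105670330) overlaps Pax6 with no shared exon base. Lhx1os (chr11:84525660-84535831) starts 125 nt from the start of Lhx1 on the opposite strand and does not overlap it. Sox2ot (chr3:34104270-34682619) contains Sox2 on the same strand, and Rmst (chr10:92071037-92165170) was given no coding neighbour here. Of the 61 rows, 24 are annotated as antisense, 19 as lincRNA, 16 as sense overlapping and 2 as retained introns.

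The sequences below are those on which the results turn. The first is the junction of exons 1 and 2 of ENSMUST00000136990, the 1 annotated Emx2os transcript (5023 nt, 4 exons), whose count was the 1 member count that passed the test between the regions. It covers transcript bases 416 to 655, within chr19:59432913-59458220 on the minus strand of GRCm38 with the intron left out, and it is clear of every Emx2 exon. Capitals mark exon 2.
Emx2os: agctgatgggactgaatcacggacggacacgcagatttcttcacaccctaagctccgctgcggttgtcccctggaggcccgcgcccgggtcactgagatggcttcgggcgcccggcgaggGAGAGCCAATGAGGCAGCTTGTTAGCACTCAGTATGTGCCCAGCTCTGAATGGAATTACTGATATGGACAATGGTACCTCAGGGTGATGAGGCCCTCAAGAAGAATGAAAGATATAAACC

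Dlx6os1 has 2 abundant annotated transcripts, between which its counts were divided very differently from library to library. ENSMUST00000159568 (4608 nt, 3 exons) starts 10001 nt upstream of ENSMUST00000159827 (4446 nt, 2 exons), and they share 4025 nt of their last exon. The sequences show where each joins the shared exon, from chr6:6824508-6869428 and chr6:6824508-6861591 on the minus strand of GRCm38 with the introns left out. Capitals mark bases that the other transcript lacks.
ENSMUST00000159568: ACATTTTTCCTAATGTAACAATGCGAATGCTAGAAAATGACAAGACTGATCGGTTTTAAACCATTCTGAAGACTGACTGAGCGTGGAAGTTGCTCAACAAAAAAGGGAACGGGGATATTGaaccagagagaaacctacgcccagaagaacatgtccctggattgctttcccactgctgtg
ENSMUST00000159827: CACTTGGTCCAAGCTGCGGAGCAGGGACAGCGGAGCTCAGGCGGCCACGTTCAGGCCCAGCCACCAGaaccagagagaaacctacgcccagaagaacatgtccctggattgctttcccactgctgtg

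RefSeq start regions of 300 bases (250 before and 50 after an annotated start, GRCm38.p6) were at hand for 4 of the 10 genes, 5 regions in all. Both regions of Dlx6os1 are shown because the transcripts above differ in their start. The RefSeq start of the first lies inside exon 2 of ENSMUST00000159568, and that of the second lies 92 nt upstream of the start of ENSMUST00000159827. Capitals mark TAATTA, the core recognised by many homeodomain proteins, which reads the same on both strands.
chr6:6869484-6869783, minus strand: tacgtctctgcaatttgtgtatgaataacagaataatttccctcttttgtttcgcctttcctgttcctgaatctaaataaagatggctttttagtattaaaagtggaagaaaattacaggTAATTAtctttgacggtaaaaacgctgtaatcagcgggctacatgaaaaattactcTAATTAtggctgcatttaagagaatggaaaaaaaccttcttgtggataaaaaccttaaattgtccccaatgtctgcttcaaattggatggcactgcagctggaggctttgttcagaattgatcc
chr6:6861634-6861933, minus strand: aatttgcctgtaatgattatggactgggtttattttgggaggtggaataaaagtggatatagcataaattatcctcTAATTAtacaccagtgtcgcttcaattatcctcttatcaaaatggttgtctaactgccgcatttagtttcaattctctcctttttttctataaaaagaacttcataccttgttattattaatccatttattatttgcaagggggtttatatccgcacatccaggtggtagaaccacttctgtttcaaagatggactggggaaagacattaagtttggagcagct

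The first region holds TAATTA at 2 places and the second at 1, and the region of Pax6os1 holds it at 1 place. Those of Six3os1 and Lhx1os hold none. Over 32851 mouse start regions of this length, 5.29% hold at least 1 and 0.49% at least 2. The Dlx6os1 regions are AT-rich, with 35.7% and 35.3% GC against a median of 52.7%. These matches describe the letters only.

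Library totals ran from 3517967 to 5014389 counts, so that 3 counts, the limit set by a count of 0, correspond to 0.598 to 0.853 CPM (counts scaled to one common library total). That limit covers counting error only. Most rows are non-coding transcripts, and coding genes and cell type markers are read through whatever rows the table has of them. Of 8 listed markers each, 4 of hippocampal neurons and 5 of cortical neurons had counts. The hippocampal ones summed to 267 to 372 CPM in the 6 hippocampus libraries and 112 to 259 in the 6 cortex libraries. Of these 4, 3 had the higher mean in hippocampus, and Spock1 did not. The cortical ones summed to 48.1 to 72.1 and 75.5 to 135, and 0 of the 5 had the higher mean in hippocampus. By these sums each region's libraries went with their label. The series states 2 females and 1 male in each group. Xist counts of 30468 to 46630 with 0 counts on Y-linked genes were seen in the libraries numbered 1 and 2 of 5 × FAD in both regions, and all other libraries, the 6 of WT included, had 4 to 25 Xist counts and at least 1074 Y-linked counts. The comparisons of genotype therefore differ in sex-linked transcripts too. For some gene sums the values are also given without the 5 × FAD libraries 1 and 2. Single transcripts were not fitted without them. Labels do not tie cortex and hippocampus libraries to single mice.

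Sox2ot, Rmst and Dlx6os1 were the most abundant of the genes. Per kilobase of annotated transcript, their medians over the 12 libraries were 79.3, 71.8 and 46.6 CPM per kb, and their ranges overlapped widely, from 55.3 to 142, 51 to 173 and 37.9 to 146. Zfhx2os (median 29.6 CPM per kb) and Dlx1as (26.9) followed, with ranges of 3.66 to 66.5 and 19.3 to 45.1 that overlap. Emx2os came next at 8.24 CPM per kb, and its range of 4.57 to 15.4 lies below that of Dlx1as but within that of Zfhx2os. Six3os1 stood at 4.06, Otx2os1 at 1.08 and Pax6os1 at 0.685 CPM per kb. Lhx1os, which had counts in 3 of 12 libraries, had a median of 0, which lies under the limit of a count of 0. On the plain CPM scale, which does not take length into account, Dlx6os1 led with a median of 194 CPM.

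**Figure D1:**
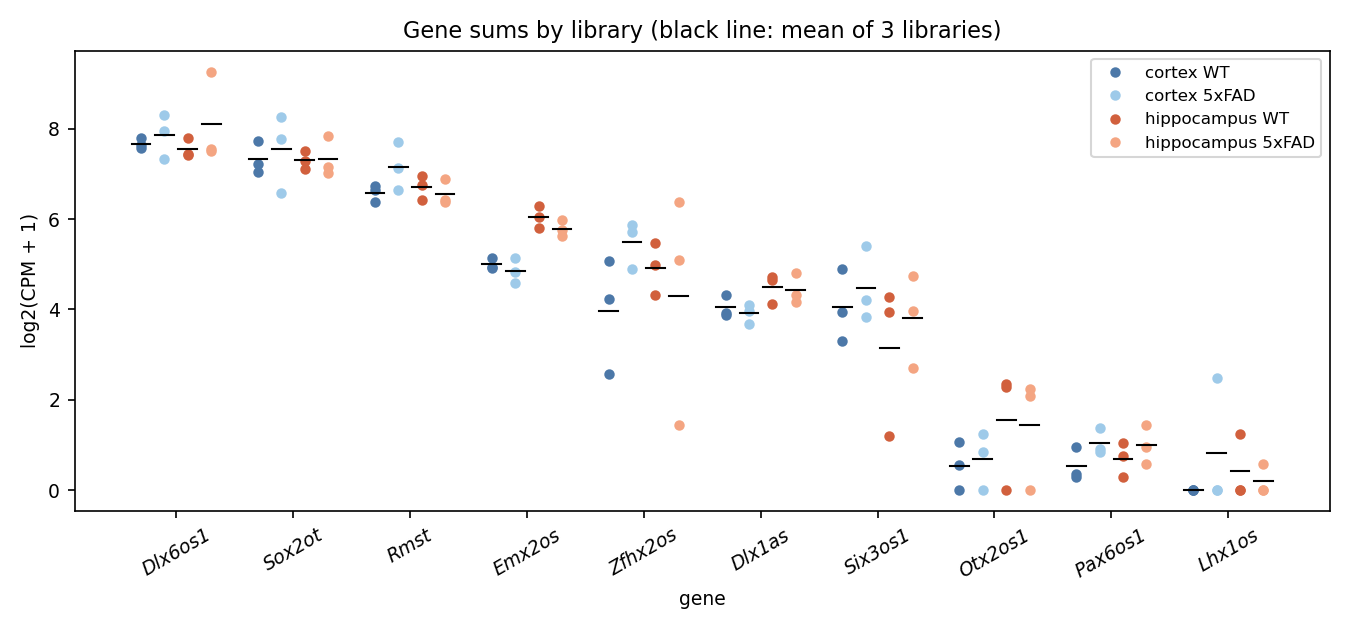
Level of each of the 10 genes in the 12 libraries, as log2(CPM + 1) of counts summed per gene, with 1 point per library and a black line at the mean of each group of 3. Emx2os is the gene whose 6 hippocampus points, at 48.4 to 77.5 CPM, all lie above its 6 cortex points, at 23.0 to 34.4 CPM.

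Hippocampus against cortex was the main comparison. Emx2os, the antisense partner of the gene for the dorsal telencephalic factor Emx2, was 2.02-fold higher in hippocampus, and it was the 1 member gene that passed the test. In cortex Emx2os stood at 34.4, 29.8 and 29.1 CPM for WT and 34.2, 27.5 and 23.0 CPM for 5 × FAD. In hippocampus it stood at 54.5, 77.5 and 64.6 CPM for WT and 48.4, 53.1 and 61.8 CPM for 5 × FAD. The regions did not overlap, and the means were 29.64 ± 4.30 and 59.99 ± 10.4 CPM (SD, n = 6 each). The log2 fold change was 1.01 (SE 0.14, adjusted p = 0.001294, quasi-likelihood test of edgeR, Benjamini-Hochberg adjusted). Of the 8 member genes with enough counts to be tested, 1 was higher and 0 were lower, beside 6.82% of the 12109 gene sums tested over the whole table, 3.65% higher and 3.17% lower. The median log2 fold change of the 8 was 0.21, and that of all gene sums tested was 0.0044.

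The call on Emx2os held under all 18 alternative settings run, each library left out in turn included, with log2 fold changes of 0.94 to 1.08 and adjusted p from 1.15e-08 to 0.02247 in edgeR or DESeq2. Within WT mice 1 of 7 member genes tested was called, Emx2os, with a log2 fold change of 1.06 (SE 0.17, adjusted p = 0.02427, edgeR), beside 3.5% of 11431 gene sums. That call was lost without any 1 of the 6 WT libraries, with log2 fold changes of 0.93 to 1.17 and adjusted p of 0.05341 to 0.08971. Within 5 × FAD mice 0 of 7 were called in edgeR, beside 0.193% of 11404 gene sums. Emx2os had 0.94 there (SE 0.23, adjusted p = 0.17, edgeR; 1 of the 7 had an unadjusted p under 0.05), and the adjusted p was 0.03601 in DESeq2, where 2.95% were called. The region effect in 5 × FAD less that in WT was -0.13 (SE 0.28, adjusted p = 0.9556, edgeR interaction), so a difference of the region effect was not detectable. Emx2 itself stood at 0 to 0.941 CPM in the 1 row the table holds of it, and was too low to test.

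Dlx1as, which runs across the interneuron gene Dlx1, came next. Its levels were 19.1, 14.2 and 13.7 CPM in cortex of WT, 14.7, 11.7 and 16.2 in cortex of 5 × FAD, 25.5, 16.4 and 24.1 in hippocampus of WT, and 27.0, 18.9 and 17.1 in hippocampus of 5 × FAD. The 2 regions overlap between 16.4 and 19.1 CPM. The log2 fold change was 0.52 (SE 0.18, unadjusted p = 0.01383, adjusted p = 0.1218, edgeR), and the adjusted p stayed between 0.08118 and 0.2563 over 18 alternatives. Dlx1, by the non-coding rows that the table holds of it, had a log2 fold change of 0.41 (SE 0.44, adjusted p = 0.6907, edgeR).

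Dlx6os1, whose transcripts include the one known as Evf2 and which is expressed in the interneuron lineage, did not pass the test. It stood at 160 to 314 CPM in cortex, with a median of 210, and at 171 to 613 CPM in hippocampus, with a median of 184. The highest value belonged to 1 library, hippocampus 5 × FAD 1, and the other 5 hippocampus libraries lay between 171 and 221 CPM. The log2 fold change was 0.17 (SE 0.30, adjusted p = 0.8239, edgeR) with all libraries and -0.26 without hippocampus 5 × FAD 1. Of 13 interneuron markers 9 had rows, and their sum was 69.4 to 1620 CPM in cortex and 55.0 to 2518 CPM in hippocampus. The spread of that sum was mainly that of Gad1, whose counts ran from 108 to 6848 in cortex and 76 to 9574 in hippocampus. Dlx1, the next highest marker, reached at most 335 counts, and Gad2 ran from 10 to 40 over all libraries. In hippocampus 5 × FAD 1 the counts of Gad1 (9574) and Dlx1 (335) were the highest of the region, that of Lhx6 (10) was the lowest, and that of Gad2 (27) lay inside the region's range of 10 to 36. The part of interneuron content in the value of Dlx6os1 was not tested.

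Six3os1 and Otx2os1 were low and did not pass the test, and markers of the striatum and the choroid plexus differed between the same libraries. Six3os1 stood at 8.86 to 41.2 CPM in cortex and 1.28 to 25.7 CPM in hippocampus, and its log2 fold change was -0.64 (SE 0.56, adjusted p = 0.6063, edgeR). In the same libraries, all 4 of the striatal markers with rows, of 8 listed, had a higher mean in cortex, and their sum was 222 to 514 CPM there against 55.9 to 248 CPM in hippocampus. Of these, Ppp1r1b, which encodes the dopamine signalling protein DARPP-32, fell by 1.64 on the log2 scale from cortex to hippocampus (adjusted p = 0.01032, edgeR), and the dopamine receptor gene Drd1 by 1.88 (adjusted p = 0.01504). Library by library, the highest striatal sum of each region, in cortex 5 × FAD 1 and hippocampus WT 1, stood beside 17.5 and 14.3 CPM of Six3os1, below the highest Six3os1 of the region. The part of striatal tissue in the Six3os1 value was not tested.

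Otx2os1 had counts of 2, 5 and 0 in cortex of WT, 0, 3 and 6 in cortex of 5 × FAD, 19, 0 and 17 in hippocampus of WT, and 0, 14 and 15 in hippocampus of 5 × FAD. Its hippocampus libraries fell into 4 with 14 to 19 counts and 2 with 0. The log2 fold change was 1.93 (SE 0.99, adjusted p = 0.3192, edgeR). Kl, the choroid plexus gene for klotho, rose by 2.70 on the log2 scale in hippocampus (SE 0.54, adjusted p = 0.01181, edgeR). Its cortex counts were 17, 17 and 14 (WT) and 8, 6 and 47 (5 × FAD), and its hippocampus counts 145, 79 and 147 (WT) and 27, 141 and 190 (5 × FAD). The hippocampus libraries with 0 Otx2os1 counts, WT 2 and 5 × FAD 1, had the lowest Kl counts of their region. They also had the lowest Six3os1 of the region, at 1.28 and 5.49 CPM, so the match is not particular to Otx2os1. The ependymal gene Ccdc153 had hippocampus counts of 12, 10 and 36 (WT) and 12, 9 and 24 (5 × FAD), the lowest in 5 × FAD 2, which had 14 Otx2os1 counts. Its log2 fold change was 0.84 (SE 0.46, adjusted p = 0.3556, edgeR). Of 8 choroid plexus and ependyma markers, 3 had rows and 2 had counts, summing to 2.67 to 13.4 CPM in cortex and 9.74 to 52.9 CPM in hippocampus, and their part in the Otx2os1 value was not tested.

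Sox2ot, Rmst and Zfhx2os did not pass the test. Sox2ot ranged from 94.6 to 307 CPM in cortex and 128 to 229 CPM in hippocampus, with a log2 fold change of -0.19 (SE 0.26, adjusted p = 0.7699, edgeR). It moved to 0.005 without cortex 5 × FAD 3, the library with the highest Sox2ot. Rmst ranged from 81.7 to 207 CPM in cortex and from 81.5 to 123 CPM in hippocampus, with a log2 fold change of -0.26 (SE 0.18, adjusted p = 0.5086, edgeR). Zfhx2os was the least steady of the tested genes with counts in every library. It stood at 4.94, 17.9 and 32.6 CPM in cortex of WT, 28.9, 51.2 and 57.5 in cortex of 5 × FAD, 43.0, 30.7 and 18.9 in hippocampus of WT, and 81.9, 33.3 and 1.73 in hippocampus of 5 × FAD. Its highest value was 47.4 times its lowest, both in hippocampus of 5 × FAD, and its log2 fold change was 0.26 (SE 0.64, adjusted p = 0.8814, edgeR) with all libraries and -0.33 without hippocampus 5 × FAD 1. Zfhx2, which shares 3255 nt of exon with it on the other strand, was steady at 112 to 208 CPM by its non-coding rows. The libraries were stranded, but whether the counting used strand is not given in the sources used here.

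Pax6os1, with 1 to 7 counts per library, and Lhx1os, with 20 counts in cortex 5 × FAD 3, 6 in hippocampus WT 3, 2 in hippocampus 5 × FAD 3 and 0 in the other 9 libraries, were too low to test. Any difference between regions was not detectable at this depth. The coding neighbours told little more. Dlx5, Dlx6, Dlx1, Pax6 and Zfhx2 were tested through their non-coding rows and none was called, with log2 fold changes of -0.63, -0.08, 0.41, -0.19 and 0.05. Dlx2, Emx2 and Lhx1 were too low, and Six3, Otx2 and Sox2 have no row in the table.

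**Figure D2:**
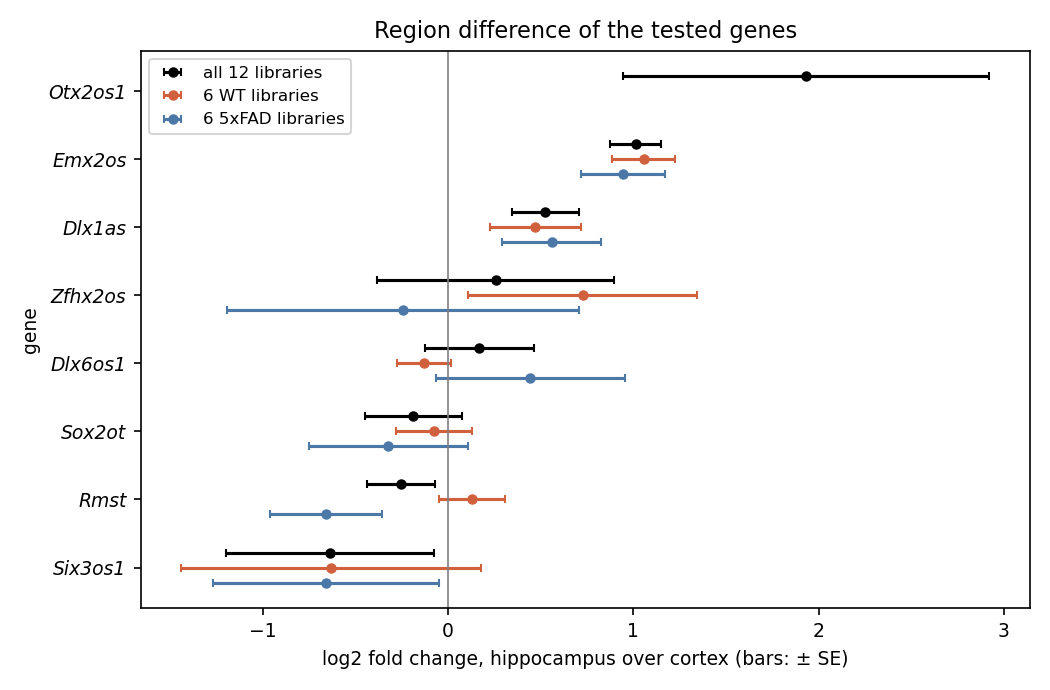
Log2 fold change of hippocampus over cortex for the 8 tested genes, from fits of all 12 libraries, the 6 WT libraries or the 6 5 × FAD libraries, with bars of 1 SE. The Emx2os estimates lie at 1.01, 1.06 and 0.94, and Rmst lies at 0.13 in WT and -0.66 in 5 × FAD. Otx2os1 was tested with all libraries only.

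Per transcript, 32 of the 61 rows were tested and 1 was called, beside 2.55% of the 24632 rows tested over the whole table. It was the Emx2os transcript, with a log2 fold change of 1.004 (adjusted p = 0.005012, edgeR). The table holds 1 row of Emx2os, so this fit used the same counts as its gene sum and is not a separate result. The median over the 32 rows was -0.07. ENSMUST00000219444, the second transcript of Rmst by counts (2679 nt, of which 10.2% are in no other Rmst transcript), lay just outside the threshold. It stood at 25.9, 31.04 and 22.9 CPM in cortex of WT, 20.4, 33.1 and 38.9 in cortex of 5 × FAD, 21.0, 18.7 and 23.0 in hippocampus of WT, and 13.0, 14.6 and 15.1 in hippocampus of 5 × FAD. The regions overlap between 20.4 and 23.0 CPM. Its log2 fold change was -0.74 (SE 0.17, adjusted p = 0.05233, edgeR), and over 18 alternatives the adjusted p ran from 0.006474 in DESeq2 to 0.1566. Without cortex 5 × FAD 1 it was 0.01831, and without each of the other libraries it missed the threshold. Within WT, 0 of 24 member rows were called, beside 0.986% of 22007 (3 had an unadjusted p under 0.05 in edgeR). The leading Rmst transcript, ENSMUST00000219606, had 0.07 with all libraries (SE 0.14, adjusted p = 0.8804, edgeR). Within WT it had 0.57 (SE 0.19, adjusted p = 0.2803, edgeR). Within 5 × FAD it had -0.44 (SE 0.22, adjusted p = 0.6132, edgeR). Its region by genotype interaction was -1.03 (SE 0.28, unadjusted p = 0.003832, adjusted p = 0.6128, edgeR). For the interaction 0 of 32 member rows were called, beside 0.00812% of 24632, and 4 had an unadjusted p under 0.05.

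The counts of Dlx6os1 were divided unevenly between its transcripts. ENSMUST00000159827 took 98.8%, 91.5% and 87.8% of the Dlx6os1 counts in cortex of WT and 20.7%, 45.5% and 82.4% in cortex of 5 × FAD. The hippocampus libraries gave it 62.8%, 97.3% and 98.9% for WT and 24.2%, 70.2% and 29.8% for 5 × FAD. Nearly all the rest went to ENSMUST00000159568, whose counts were 5, 72 and 80 in cortex of WT, 562, 488 and 236 in cortex of 5 × FAD, 380, 10 and 4 in hippocampus of WT, and 1834, 237 and 494 in hippocampus of 5 × FAD. In cortex the WT and 5 × FAD counts of ENSMUST00000159568 do not overlap, and in hippocampus they do. The log2 fold change of 5 × FAD over WT in cortex was 2.98 (SE 0.92, unadjusted p = 0.0159, adjusted p = 0.8512, edgeR), where 0.0545% of 21999 rows were called, and 2.91 in hippocampus (SE 1.65, adjusted p = 0.7036), where 0.0183% of 21894 rows were called. Neither passed the test. In cortex 5 × FAD 3, the 1 of these without high Xist, the count was 236. Of the sequence, 583 nt (12.7%) of ENSMUST00000159568 and 421 nt (9.5%) of ENSMUST00000159827 lie outside the other, so a read from most of either matches both, and the division between them rests on how reads were assigned, which is not given in the sources used here. The gene sum does not depend on that division.

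**Figure D3:**
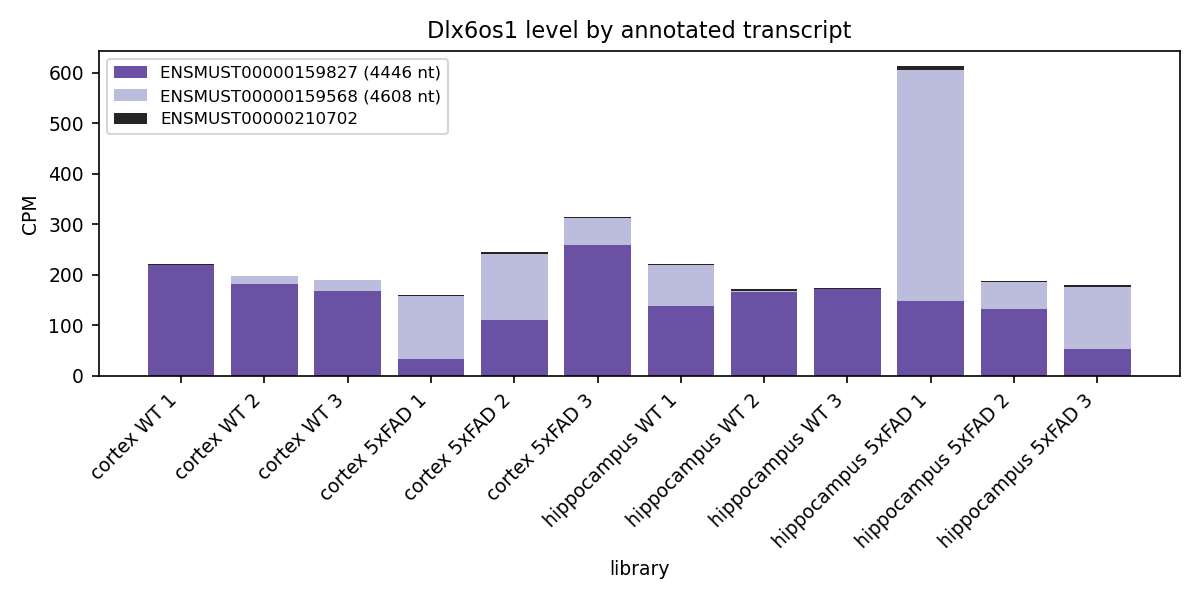
Dlx6os1 level in CPM in each of the 12 libraries, stacked by its 3 annotated transcripts. The gene sum is 160 to 314 CPM in 11 libraries and 613 CPM in hippocampus 5 × FAD 1, while ENSMUST00000159827 makes up from 20.7% to 98.9% of it.

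Similar shifts were seen within other genes. Zfhx2os was divided between ENSMUST00000183750 and ENSMUST00000176872, and the first took from 0% of its counts, in cortex WT 1 and hippocampus 5 × FAD 3, to 93.1%, in hippocampus 5 × FAD 2. Of Six3os1, ENSMUST00000177220 took 0% in 4 libraries and up to 93.5%, in cortex WT 3. ENSMUST00000199171, the leading transcript of Sox2ot, took 14.96% to 74.2%. The leading transcripts of Dlx1as and Rmst were steadier, at 47.7% to 72.7% and 24.7% to 54.7%.

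5 × FAD against WT was compared within each region. None of the 8 member genes tested in hippocampus was called by edgeR or DESeq2, beside 0.0529% and 0.74% of 11345 gene sums. None of the 7 tested in cortex was called by edgeR or DESeq2, beside 0.0175% and 0.465% of 11409. At an unadjusted p under 0.05 the count of gene sums was 0 in both regions. Of single transcripts, 0 of 28 in hippocampus and 0 of 25 in cortex were called, beside 0.0183% and 0.0545% of all rows. In edgeR 1 and 4 of them had an unadjusted p under 0.05. The lowest in cortex was ENSMUST00000176872 of Zfhx2os, with a log2 fold change of 1.64 (unadjusted p = 0.00488, adjusted p = 0.7896, edgeR). ENSMUST00000219606 of Rmst followed with 0.73 (unadjusted p = 0.005077, adjusted p = 0.7978, edgeR), and neither overlapped between the genotypes. In hippocampus the log2 fold changes of gene sums ran from -0.24 for Emx2os to 0.82 for Dlx6os1 (SE 0.48, adjusted p = 0.6429, edgeR). The Dlx6os1 value was -0.01 without hippocampus 5 × FAD 1 and -0.04 with the 5 × FAD libraries 1 and 2 left out. Zfhx2os had 0.36 (SE 0.96) in hippocampus with all libraries and -4.11 (adjusted p = 0.172, edgeR) with those left out. That fit has 1 5 × FAD library, which is assumed to vary as the WT libraries do.

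In cortex the largest differences of gene sums were those of Zfhx2os, with 1.32 (SE 0.60, adjusted p = 0.7478, edgeR), and Rmst, with 0.64 (SE 0.27, unadjusted p = 0.05051, adjusted p = 0.7392). With the 5 × FAD libraries 1 and 2 left out they were 1.65 (adjusted p = 0.7814, edgeR) and 1.12 (adjusted p = 0.3261). Emx2os had -0.14 (SE 0.21) with all cortex libraries and -0.44 with those left out. Rmst stood at 105, 98.5 and 81.7 CPM in cortex of WT and 99.2, 140 and 207 CPM in cortex of 5 × FAD. Its hippocampus levels were 107, 85.2 and 123 CPM for WT and 84.4, 81.6 and 117 CPM for 5 × FAD. Its genotype effect differed between the regions by -0.80 (SE 0.37, unadjusted p = 0.05245, adjusted p = 0.7025, edgeR interaction), which did not pass. For the interaction, 0 of 8 member genes were called by edgeR or DESeq2, beside 0.0% and 0.149% of 12109 gene sums. In edgeR 0 of the 8 had an unadjusted p under 0.05.

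Single libraries stood out across genes. Cortex 5 × FAD 3 was the highest cortex library for 8 of the 10 genes, and hippocampus 5 × FAD 1 the highest hippocampus library for 4. The 8 include the low Otx2os1, Pax6os1 and Lhx1os, with 6, 7 and 20 counts in that cortex library. How often each library was the highest over all gene sums was not counted. Cortex 5 × FAD 3 lay above its region's median by 0.58 on the log2 scale for Dlx6os1, 0.77 for Sox2ot, 1.02 for Rmst and 1.34 for Six3os1, and below it by -0.35 for Emx2os. Hippocampus 5 × FAD 1 lay above the median by 1.73 for Dlx6os1 and 1.34 for Zfhx2os and below it by -1.32 for Six3os1. The genes thus did not move together in that library.

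**Figure D4:**
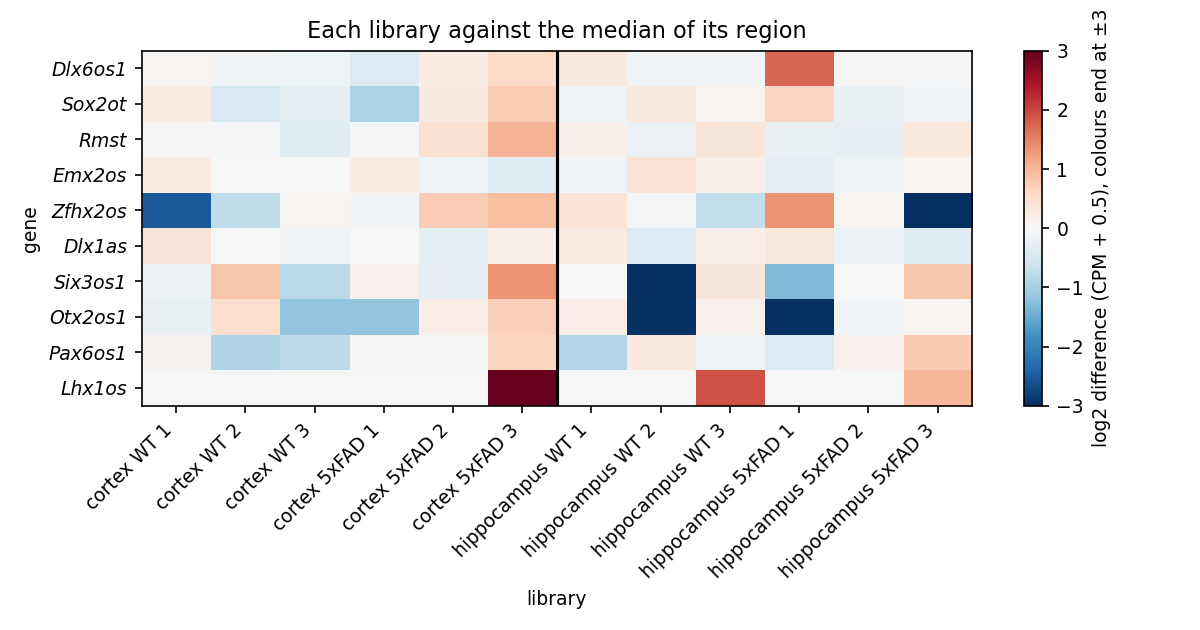
Log2 difference of each library from the median of its region, for log2(CPM + 0.5) of the 10 genes, with red for higher, blue for lower and colours that end at ±3. Cortex 5 × FAD 3 is highest in its region for 8 genes, and Emx2os keeps within -0.35 to 0.41 in every library.

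Genes whose levels followed a member most closely were found by the root mean square (RMS) difference of centred log2 CPM over the 12 libraries. For Emx2os they were the assembled locus MSTRG.5225 (0.18), Gm46123 (0.18) and Hectd2 (0.20), against an RMS spread of 0.54 of Emx2os itself. For Dlx6os1 they were MSTRG.13667 (0.19), Nxph1 (0.23) and Rasa2 (0.24), against 0.51. For Otx2os1 the nearest were MSTRG.8610 (0.59), the serotonin receptor gene Htr2c (0.64) and Lrrc23 (0.76), against 1.27, and for Six3os1 Gm39244 (0.49), Zfhx3 (0.53) and Kcnip3 (0.62), against 1.14. The libraries behind these values are the same 12, and the nearest of 12109 gene sums were taken, so the values describe the libraries only.

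A list of 28 other lncRNA genes named for developmental regulators served as a comparison. The table holds 27 of them, 13 have no count in any library and 7 could be tested. Of these, 2 rose in hippocampus and 0 fell, beside 3.65% of the 12109 gene sums tested that rose and 3.17% that fell. The median log2 fold change of the 7 was -0.08. Prox1os, the partner of the gene for Prox1, a factor of dentate granule neurons, stood at 2.59 to 8.19 CPM in the 6 cortex libraries and 13.9 to 24.2 CPM in the 6 hippocampus libraries, with a log2 fold change of 1.88 (SE 0.27, adjusted p = 0.001549, edgeR). Sox1ot stood at 110 to 177 CPM in cortex and 169 to 290 CPM in hippocampus, with 0.60 (SE 0.15, adjusted p = 0.03925). The regions did not overlap for Prox1os, and they overlapped for Sox1ot. Prox2os, Nkx2-2os, Pantr1, Pantr2 and Zeb2os lay between -0.48 and -0.05 and did not pass.

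**Figure D5:**
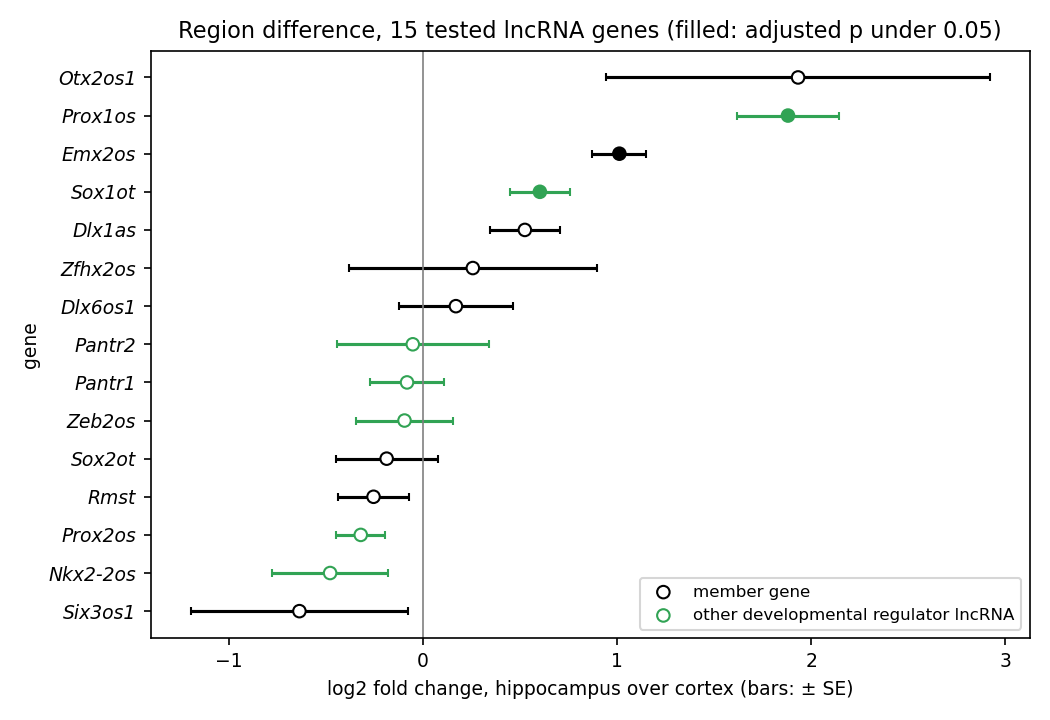
Log2 fold change of hippocampus over cortex from the fit of all 12 libraries for the 8 tested member genes (black) and 7 other tested lncRNA genes named for developmental regulators (green), with bars of 1 SE and filled points for an adjusted p under 0.05. Prox1os at 1.88, Emx2os at 1.01 and Sox1ot at 0.60 are filled. Otx2os1 has the highest value, 1.93, and an open point.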

How the data were processed

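Total RNA of the 12 libraries was depleted of ribosomal RNA, made into stranded libraries and sequenced from paired ends. The paper's description of its sequencing also lists RNase R against linear RNA, and the part of such a step in these counts was not tested. The deposited values are raw counts for each transcript, whole numbers without normalization by the authors. Trimmomatic 0.36 and edgeR are named in the submitters' processing notes. The program that counted reads and the genome build are not given in the sources used here. All columns were used, 0 were left out. Transcripts were matched to GENCODE vM21 (GRCm38), 225 identifiers were not found there, and 2436 rows are assembled loci.

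Counts were summed per gene. For the sums, and for single transcripts, edgeR 4.0.16 was run in R 4.3.3 (filterByExpr, TMM scaling, glmQLFit, glmQLFTest, Benjamini-Hochberg adjustment over all features, threshold 0.05), checked on simulated counts. Region was tested in 1 fit of 4 groups with 12 libraries and within each genotype, and genotype within each region. The SE is the size of the log2 fold change divided by the square root of F. CPM uses TMM-scaled library sizes, and CPM per kb divides each transcript's CPM by its length before summing. The mean ± SD are over libraries. Since nothing ties each library to its own mouse, p-values measure the spread between these libraries. Chi-square values per degree of freedom of 18.2 to 38.4 between libraries of a group showed no pair of libraries that agreed within sampling noise. The members and lists were chosen with earlier results of these data known. Named were all member genes, their leading and called transcripts, coding neighbours, a list of other regulator lncRNAs, and the 3 nearest gene sums of at most 4 members. Transcripts or genes singled out otherwise, ENSMUST00000219444, ENSMUST00000159568, ENSMUST00000176872, Kl and the striatal markers among them, were chosen after their values were seen. Alternatives were DESeq2 1.42.0, its size factors in edgeR, library size only, no filter, at least 10 counts in every library, a replicate block, each library left out, and 5 × FAD libraries 1 and 2 left out. Single transcripts in the comparisons within a genotype or region, and in the interaction, were added after seeing the data. Start regions are from RefSeq. Values the study gives for circRNA, miRNA and mRNA were not used here.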

Additional observations from a re-analysis of the deposited data

How the results depend on the processing

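Of 464 alternative values, 427 were scored as the same. A fold change had to keep its direction and side of the threshold, and a number of called members had to stay similar. A ratio of mean levels in CPM per kb had to shift by less than the SD between libraries, whatever its direction. The hippocampus over cortex ratio of Zfhx2os was 1.085 in CPM and 0.643 in CPM per kb, and that of Pax6os1 1.083 and 0.9907. The region difference of Emx2os passed under 18 of 18 alternatives. The number of member genes called between regions was 1 in every fit that left out 1 library, beside 4.59% to 8.46% of all gene sums. Of member transcripts, 2 were called with library size only, in DESeq2 and with at least 10 counts in every library, where 2.61%, 5.59% and 5.23% of all transcripts tested were called. With 1 library left out it was 1 to 2, beside 1.45% to 3.24%. The cause was not tested. Within WT the count was 0 with single transcripts, beside 0.986% of those tested. With 1 WT library left out, which has fewer samples, it was 0 to 0, beside 0.984% to 2.54% of gene sums. Within 5 × FAD it was 1 in DESeq2, beside 2.95% of gene sums.

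The direction turned without 1 library for Dlx6os1 (-0.26 to 0.31), Zfhx2os (-0.33 to 0.60) and Sox2ot (-0.37 to 0.005) between regions, for Rmst within WT (-0.005 to 0.27), for Dlx6os1 within 5 × FAD (-0.38 to 0.74), and between genotypes in hippocampus for Dlx6os1 (-0.011 to 1.11) and Zfhx2os (-0.79 to 0.92). With 5 × FAD libraries 1 and 2 left out, the hippocampus values of Dlx6os1 and Zfhx2os were -0.044 and -4.11. None of these passed the test.

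Replicate numbers of cortex and hippocampus libraries were not shown to pair them. The deviations of same-numbered libraries correlated by 0.012, -0.033 and -0.036 in WT and 0.073, 0.095 and 0.261 in 5 × FAD. With the replicate block, 1 member gene was still called between regions, beside 3.96% of all gene sums. Of member transcripts 0 were called (Emx2os adjusted p = 0.07901, edgeR, beside 0.832% of all transcripts called). Within WT 0 member genes were called (Emx2os adjusted p = 0.114, edgeR, beside 0.0437% of all gene sums). Zfhx2os between genotypes in hippocampus had -0.40 with the block. Depth limits Otx2os1, Pax6os1 and Lhx1os, whose counts were at most 20 per library.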
